A study of Mus musculus with 2 samples.

Results

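Photoreceptor ribbon synapse genes were 10 of the 32227 genes counted in single nuclei of the mouse retina. Members were taken by gene symbol and were Cplx3, Cplx4, Ctbp2, Bsn, Cacna1f, Cacna2d4, Slc17a7, Elfn1, Elfn2 and Egflam. Each symbol matched 1 gene, and all 10 had UMIs (unique molecular identifiers, each standing for 1 captured transcript) in both libraries.

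Rods and cones release glutamate continuously in the dark and reduce release in light. A plate-like ribbon holds vesicles above calcium channels at the release site, so that release can follow small changes in voltage. Adhesion molecules of the rod or cone terminal reach across the cleft and hold the glutamate receptor complex of bipolar cells in place. Rods and cones share most of this machinery, but Elfn1 is known from rod terminals and Elfn2 from cone terminals.

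Whole retinas of C57 BL/6J mice at postnatal day 21 were profiled in 2 libraries of nuclei. Tet tcKO animals had floxed Tet1, Tet2 and Tet3, which encode the enzymes that oxidise methylated cytosine, and a Chx10-Cre-GFP transgene that acts in retinal progenitors and so in their neuronal and Müller glial descendants. The controls, named Cre-, were of the same age and came from breeders without that transgene, and the labels call them wild type. Breeders of Tet tcKO animals carried 2 functional copies of the transgene, which is known to be mosaic. Animals were pooled in 2 dissociations per genotype, and the tables do not say which nucleus came from which, so each genotype is 1 library with no replicate. Every interval given is an exact 95% interval that covers counting error only, and no test between genotypes was possible.

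The Cre- library held 7357 nuclei, 11510585 UMIs and a median of 1107 UMIs per nucleus. The Tet tcKO library was deeper, with 6766 nuclei, 16590747 UMIs and a median of 1836.5, and 1 barcode sequence was found in both libraries. Mitochondrial genes held 5.47% of Cre- and 1.76% of Tet tcKO UMIs. Summed UMIs of the targeted genes were not lower in the Tet tcKO library for Tet1 (log2 ratio 0.29, interval 0.14 to 0.44) or Tet2 (0.41, 0.31 to 0.51), and for Tet3 the log2 ratio was -0.05 (-0.14 to 0.03). The tables do not show which part of a transcript a UMI came from, so these counts do not check the removal of an exon.

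The authors named 5214 Cre- and 6 Tet tcKO nuclei rods, and 265 Cre- and 3225 Tet tcKO nuclei cones. Marker genes did not follow these names in the Cre- library, where 11 rod markers summed to 12912 UMIs per 1000000 UMIs (CPM) in cone-annotated and 10318 CPM in rod-annotated nuclei, and 12 cone markers to 1916 and 1749 CPM. In the Tet tcKO library the cone-annotated nuclei had 5811 CPM of rod and 6930 CPM of cone markers, and the 6 rod-annotated nuclei 26344 and 2151 CPM. All 11 rod and 12 cone markers had UMIs in the cone-annotated nuclei of each library. Rod- and cone-annotated nuclei were therefore pooled and are called photoreceptor clusters. They were 22 clusters with 4621 Cre- and 3231 Tet tcKO nuclei. Clusters 32 and 40, with 858 Cre- nuclei, were left out, because markers of another cell type outnumbered those of rods and cones among their 10 leading genes. Of the clusters kept, 11, 16, 20, 21, 25, 44, 46 and 52 had 0 rod or cone markers among their 10 leading genes. This held both by summed UMIs and with each gene counted once per nucleus. They also had 0 markers of any other list, so they were kept on a tie. Cluster 11 held 264 of the Cre- cone-annotated nuclei. In cluster 25, with 133 Cre- nuclei, the 4 leading genes were the haemoglobin genes Hbb-bt, Hbb-bs, Hba-a2 and Hba-a1, and no list held haemoglobin genes. Its other leading genes by summed UMIs were Adap2, Klf2, Ctla2a, Adgrl4, Klf4 and Abcc9, which were in no list either. The rod markers summed to 9058 CPM in its Cre- nuclei, so its leading genes do not settle which cells it holds. Without cluster 25, an alternative chosen after seeing the data, Cplx4, Cplx3 and Elfn2 had log2 ratios of -1.60, 0.90 and 0.97 in photoreceptor clusters, and 1 member was 2-fold lower. Mitochondrial genes stood among the leading genes of clusters 21, 34, 38 and 44.

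In these photoreceptor clusters Cplx4, the complexin found in photoreceptor terminals, was lower in the Tet tcKO library, at 95.8 CPM against 289 CPM. Its partner Cplx3 was higher, at 156 against 84.0 CPM, and the cone-type adhesion molecule Elfn2 was higher, at 79.9 against 40.7 CPM. Cacna1f was lower, at 237 against 445 CPM. Ctbp2 and Egflam differed by less than their counting error.

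Over all nuclei 2 of 10 members, Cplx4 and Cacna1f, were at least 2-fold lower and 0 were at least 2-fold higher. Of the 11158 genes that reached 10 CPM in either library, 2.48% were 2-fold lower and 3.18% 2-fold higher, or 277 and 355 genes, which TMM scaling factors changed to 356 and 276. In photoreceptor clusters 1 of 10 members, Cplx4, was 2-fold lower and 0 were 2-fold higher, against 2.57% and 6.43% of 11383 genes. With TMM factors 2 of 10 were 2-fold lower, as Cacna1f was then at -1.09, and the genes past 2-fold were 451 lower and 445 higher in place of 293 and 732. All 10 members passed the level of 10 CPM in both libraries. The median log2 ratio of the members was -0.10 over all nuclei and -0.17 in photoreceptor clusters, where all genes tested had medians of 0.15 and 0.22. In each case 8 of 10 members lay below the median gene.

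**Figure D1:**
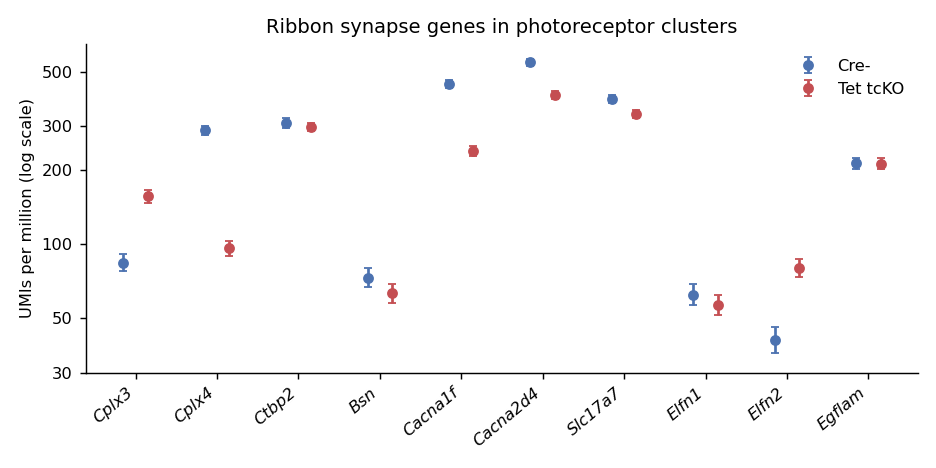
Level of each ribbon synapse gene in the photoreceptor clusters, in CPM on a log scale, with 1 point per library and bars for the exact 95% Poisson interval. Cplx4 and Cacna1f sat lower in the Tet tcKO library, Cplx3 and Elfn2 sat higher, and the points of Ctbp2 and Egflam lay together.

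Gene bounds are from GENCODE vM39 on GRCm39. Cplx3 spans chr9:57507275-57513575 on the minus strand and Bsn chr9:107973221-108067629 on the minus strand. Ctbp2 spans chr7:132589292-132726083 on the minus strand and Slc17a7 chr7:44813305-44825644 on the plus strand. Elfn2 and Egflam are on the minus strand of chromosome 15, at chr15:78551531-78603079 and chr15:7235599-7427876. Cacna1f lies at chrX:7473322-7501435, Cacna2d4 at chr6:119213408-119329368 and Elfn1 at chr5:139893517-139960483, all on the plus strand. Counts of Ctbp2 are uncertain where it overlaps Fgfr2 on the same strand over 135788 bases, and those of Cacna2d4 where it overlaps Lrtm2 on the opposite strand over 15685 bases, since the sources used here do not say how the authors' counting treated strand or shared bases.

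Promoter sequences of 8 members were matched by symbol in RefSeq (build GRCm38.p6), each of 300 bases from 250 before to 50 after a start site, and each of these 10 sequences matched GRCm39 at 1 place. Cplx4 and Cacna2d4 had no entry. The promoters of Elfn1 and Elfn2 are shown because the balance of this pair differed between the libraries. The capitals mark CG, the dinucleotide whose methylation TET enzymes act on. On GRCm39 Elfn1 is at chr5:139893371-139893670 on the plus strand and Elfn2 is at chr15:78602922-78603221 on the minus strand.
Elfn1: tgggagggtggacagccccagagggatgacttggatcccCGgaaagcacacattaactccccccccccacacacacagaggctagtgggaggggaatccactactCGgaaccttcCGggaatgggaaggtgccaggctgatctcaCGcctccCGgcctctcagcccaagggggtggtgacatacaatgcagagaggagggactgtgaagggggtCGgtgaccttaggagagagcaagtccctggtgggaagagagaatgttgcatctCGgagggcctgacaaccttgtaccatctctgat
Elfn2: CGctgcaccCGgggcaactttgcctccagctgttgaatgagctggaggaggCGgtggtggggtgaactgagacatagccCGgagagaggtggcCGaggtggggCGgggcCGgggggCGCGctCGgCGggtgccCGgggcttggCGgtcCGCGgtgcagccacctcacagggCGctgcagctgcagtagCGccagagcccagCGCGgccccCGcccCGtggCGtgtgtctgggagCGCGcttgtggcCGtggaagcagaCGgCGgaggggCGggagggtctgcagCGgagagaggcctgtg
The Elfn1 promoter held 7 CG, the median of all 32544 promoters, and the Elfn2 promoter held 29, above their upper quartile of 20. Bsn had 38 CG and Egflam 22, while Cacna1f had 5. Methylation was not measured in these libraries.

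The promoters were also searched on both strands for TAATCC, the letters bound by the photoreceptor homeodomain factor Crx, and TGCTGAC, letters bound by Maf factors such as the rod factor Nrl. No match overlapped another. TAATCC was in 1 of the 10 member promoters and in 7.06% of all promoters, and TGCTGAC in 1 of 10 and in 4.65%. The promoters with a match are shown with the match in capitals, on GRCm39 Ctbp2 at chr7:132616927-132617226 and Cplx3 at chr9:57513515-57513814, both on the minus strand.
Ctbp2: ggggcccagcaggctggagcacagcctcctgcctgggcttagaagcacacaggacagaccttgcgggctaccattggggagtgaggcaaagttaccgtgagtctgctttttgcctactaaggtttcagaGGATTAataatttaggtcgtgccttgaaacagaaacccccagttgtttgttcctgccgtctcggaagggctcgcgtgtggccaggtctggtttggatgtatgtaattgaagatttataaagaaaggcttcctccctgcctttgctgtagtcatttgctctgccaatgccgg
Cplx3: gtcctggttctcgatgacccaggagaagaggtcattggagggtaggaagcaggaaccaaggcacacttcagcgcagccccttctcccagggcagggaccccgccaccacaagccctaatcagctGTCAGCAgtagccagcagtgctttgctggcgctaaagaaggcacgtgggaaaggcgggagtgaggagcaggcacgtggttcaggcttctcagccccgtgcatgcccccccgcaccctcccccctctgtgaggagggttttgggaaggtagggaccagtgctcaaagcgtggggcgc
Each match reads as the reverse complement of the motif, and its first base lies at -121 from the start site in Ctbp2 and at -126 in Cplx3. A match describes letters only, and the lack of one says nothing of the factor.

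Ctbp2 makes a corepressor of transcription in many cells and, from an inner start, RIBEYE, the protein that builds the ribbon. The Ctbp2 promoter shown belongs to the start at position 132616977, whose transcript has a first coding exon of 1687 bases and encodes 988 residues, against 445 residues for the transcript that begins at 132725096. The counts are per gene and do not separate the forms. Ctbp2 stood at 310 CPM in the Cre- and 298 CPM in the Tet tcKO photoreceptor clusters, a log2 ratio of -0.05 (-0.14 to 0.03). Over all nuclei its levels were 284 and 265 CPM, with a ratio on the log2 scale of -0.10 (-0.17 to -0.04). It was spread over the retina, with 258 CPM in the Cre- and 227 CPM in the Tet tcKO amacrine nuclei and 143 and 97.0 CPM in retinal ganglion cells (RGCs).

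Bsn encodes bassoon, the scaffold that anchors the ribbon at the active zone and that also serves conventional synapses. Its level was 72.8 CPM in the Cre- and 62.9 CPM in the Tet tcKO photoreceptor clusters, a log2 ratio of -0.21 (-0.40 to -0.03). In both libraries Bsn was higher in amacrine nuclei than in photoreceptor clusters, at 170 CPM in the Cre- and 110 CPM in the Tet tcKO library. It was the only member with a photoreceptor level below that of the amacrine class in both libraries. Rod- and cone-annotated nuclei held 53.6% of Bsn UMIs in the Cre- library and 33.4% in the Tet tcKO library, the lowest shares of any member in each.

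Cacna1f encodes the pore of the L-type calcium channel of photoreceptor terminals. It stood at 445 CPM (430 to 461) in the Cre- and was lower, at 237 CPM (226 to 249), in the Tet tcKO photoreceptor clusters, a log2 ratio of -0.91 (-0.99 to -0.82), and 3.22% of genes had a lower ratio. Over all nuclei the log2 ratio was -1.11 (-1.18 to -1.04). The auxiliary subunit Cacna2d4 was at 547 CPM in the Cre- and 401 CPM in the Tet tcKO photoreceptor clusters, a log2 ratio of -0.45 (-0.52 to -0.38). Its UMIs per Cacna1f UMI went from 1.23 to 1.69, a change of 0.46 on the log2 scale (0.35 to 0.57). This pair was chosen after its values were seen.

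Slc17a7 encodes the vesicular glutamate transporter that fills photoreceptor vesicles. Its level was 389 CPM in the Cre- and 337 CPM in the Tet tcKO photoreceptor clusters, a log2 ratio of -0.21 (-0.29 to -0.13). Over all nuclei the log2 ratio was -0.48 (-0.54 to -0.41). In the Cre- library 80.5% of its UMIs came from rod- and cone-annotated nuclei, and in the Tet tcKO library 67.1%.

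Cplx3 and Cplx4 encode the complexins of ribbon synapses, which bind the fusion complex and keep vesicles ready for release. Cplx4, on the minus strand of chromosome 18, had 289 CPM (277 to 302) in the Cre- and 95.8 CPM in the Tet tcKO photoreceptor clusters, where it was 3.02-fold lower. Its log2 ratio of -1.59 (-1.72 to -1.47) was the lowest of the members, and 0.633% of genes tested had a lower one. Cplx3 had 84.0 CPM (77.3 to 91.1) in the Cre- and 156 CPM in the Tet tcKO photoreceptor clusters, a log2 ratio of 0.89 (0.75 to 1.04). The ratio of Cplx3 was above that of 91.4% of genes.

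The UMIs of Cplx3 per UMI of Cplx4 went from 0.290 in the Cre- library to 1.63 in the Tet tcKO library, a change of 2.49 on the log2 scale (2.29 to 2.68). The pair was chosen after its values were seen. Over all nuclei the log2 change was 2.19 (2.03 to 2.35). In amacrine nuclei the log2 change was 1.20 (0.24 to 2.16).

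Elfn1 and Elfn2 encode leucine-rich repeat proteins that bind the glutamate receptor Grm6 of ON bipolar cells across the cleft. Elfn1 was at 62.2 CPM (56.5 to 68.4) in the Cre- and 56.5 CPM (51.3 to 62.2) in the Tet tcKO photoreceptor clusters, a log2 ratio of -0.14 (-0.34 to 0.06). Elfn2 was at 40.7 CPM (36.1 to 45.8) in the Cre- and 79.9 CPM (73.6 to 86.6) in the Tet tcKO photoreceptor clusters, a log2 ratio of 0.97 (0.76 to 1.18). Only the intervals of Elfn2 stood apart. The ratio of Elfn2 was above that of 93.1% of genes.

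Elfn2 had 0.655 UMIs per Elfn1 UMI in the Cre- library and 1.41 in the Tet tcKO library, a 2.16-fold change (log2 1.11, interval 0.82 to 1.40). Over all nuclei the ratio went from 0.823 to 1.30 (log2 0.65, 0.44 to 0.87). In RGCs it went from 0.962 to 0.659, and the interval of that change ran from -1.32 to 0.23. Within the Cre- library the pair did not follow the rod and cone names, where the rod-annotated nuclei include clusters 32 and 40. Elfn1 was at 58.1 CPM (52.4 to 64.2) in rod-annotated and 71.7 CPM (56.3 to 90.1) in cone-annotated nuclei, and Elfn2 at 41.6 CPM (36.8 to 46.8) and 42.7 CPM (31.0 to 57.3).

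Egflam encodes pikachurin, which links dystroglycan of the photoreceptor terminal to the bipolar dendrite. Its level was 212 CPM in the photoreceptor clusters of both libraries, a log2 ratio of -0.00 (-0.11 to 0.10). Over all nuclei it was 174 CPM in both libraries. These equal totals did not come from equal sources. In the Cre- library 79.2% of Egflam UMIs were from rod- and cone-annotated nuclei, against 54.5% in the Tet tcKO library.

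**Figure D2:**
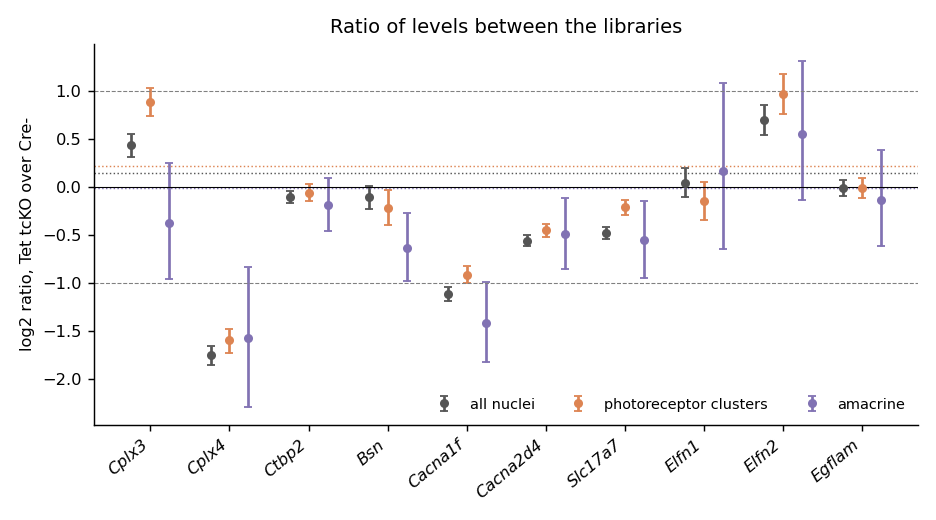
Log2 ratio of each gene, Tet tcKO over Cre-, over all nuclei, in photoreceptor clusters and in amacrine nuclei, with exact 95% intervals of counting error, dotted lines at the median of all genes tested and dashed lines at 2-fold. Cplx4 lay below the lower 2-fold line in each population, while Cplx3 was above 0 over all nuclei and in photoreceptor clusters and its amacrine interval crossed 0.

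The photoreceptor clusters of 100 nuclei or more showed how far these levels varied within a library. They were 13 Cre- and 8 Tet tcKO clusters, which share their library and so are not replicates. Cplx4 ran from 188 to 384 CPM in Cre- clusters and from 68.5 to 109 CPM in the Tet tcKO clusters, and it was the only member whose ranges did not overlap. Of all genes tested 1.88% had ranges that did not overlap and were lower in Tet tcKO, and 3.23% were higher. Elfn2 came near, with 9.61 to 55.4 CPM in the Cre- and 52.3 to 89.5 CPM in the Tet tcKO clusters. Its lowest value was that of Cre- cluster 36, on 2 UMIs.

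Cplx3 ran from 66.3 to 147 CPM in the Cre- and from 93.2 to 181 CPM in the Tet tcKO clusters, and Cre- clusters 21, 25, 34 and 44 lay above the lowest Tet tcKO cluster. Cacna1f ran from 250 to 614 and from 84.1 to 272 CPM, and Elfn1 from 39.5 to 86.7 and from 34.2 to 70.5 CPM. The lowest Cre- value of Elfn1 was that of cluster 25, on 6 UMIs. The marker sums moved with the library. The 12 cone markers summed to between 1306 and 2149 CPM in the Cre- clusters and between 5533 and 7807 CPM in the Tet tcKO clusters, and the 11 rod markers to between 8031 and 12919 CPM and between 4185 and 6792 CPM. Their part in the member ratios was not tested.

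**Figure D3:**
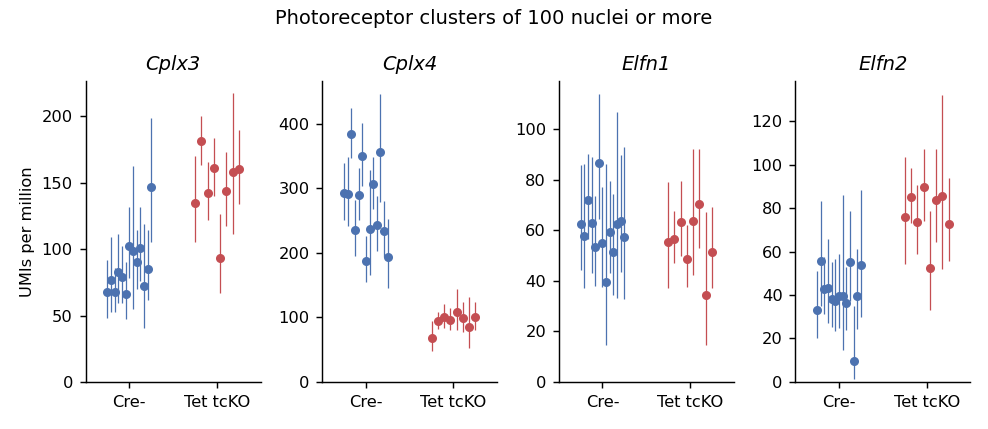
Level of Cplx3, Cplx4, Elfn1 and Elfn2 in CPM, with 1 point per photoreceptor cluster of 100 nuclei or more and bars for the exact 95% Poisson interval. The Cplx4 points of the 8 Tet tcKO clusters, 68.5 to 109 CPM, all lay under the 13 Cre- clusters, while those of Elfn1 overlapped.

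In cone-annotated nuclei alone, 1 of 10 members was 2-fold lower and 1 was 2-fold higher, against 3.48% and 8.48% of 11445 genes. These were Cplx4, at 384 CPM in the Cre- and 95.6 CPM in the Tet tcKO nuclei, and Cplx3, at 67.9 and 156 CPM. Elfn2 was at 42.7 and 80.0 CPM. The Cre- cone-annotated nuclei carried rod markers at a higher sum than the rod-annotated ones. They were 265 nuclei, 264 of them in cluster 11, at a median of 3736 UMIs against 1715 in the Tet tcKO ones. A filter on a simulated-doublet score, used as an alternative, removed 148 of these Cre- nuclei.

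Depth differed between the libraries, so shares of nuclei were taken after thinning every nucleus to 500 UMIs. No nucleus was lost by this. Cplx4 had a UMI in 13.8% (12.8 to 14.8) of Cre- and 4.95% (4.23 to 5.76) of Tet tcKO photoreceptor nuclei. Before thinning the shares were 33.2% and 19.0%, at median depths of 1133 and 1714 UMIs. In amacrine nuclei, which should lack the gene, the thinned shares were 3.72% and 0.575% at median depths of 1065 and 1736 UMIs.

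Cplx3 had a UMI in 4.46% (3.88 to 5.09) of Cre- and 7.30% (6.43 to 8.26) of Tet tcKO photoreceptor nuclei after thinning, and in 11.7% and 28.7% before. Cplx3 is also used by some amacrine cells, whose thinned shares were 1.99% and 2.11%. Elfn2 had a UMI in 2.32% (1.90 to 2.79) and 3.71% (3.09 to 4.42) after thinning, and in 5.86% and 16.4% before. Its thinned share in amacrine nuclei was 1.74% (0.701 to 3.55) in the Cre- and 2.30% (1.48 to 3.40) in the Tet tcKO library, and in the Cre- library the photoreceptor share lay within that amacrine interval. Elfn1 had a UMI in 3.01% of Cre- and 2.38% of Tet tcKO photoreceptor nuclei, with intervals that overlapped, and in 1.24% and 1.34% of amacrine nuclei.

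Cacna1f had a UMI in 19.8% (18.7 to 21.0) of Cre- and 11.0% (9.96 to 12.1) of Tet tcKO photoreceptor nuclei after thinning, and in 45.4% and 39.4% before. The thinned shares in amacrine nuclei were 6.70% and 2.01%. Cacna1f and Cplx4 were thus found in a smaller share of Tet tcKO nuclei at equal depth, and Cplx3 and Elfn2 in a larger one.

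UMIs of Elfn1 and Elfn2 were found together in 0.736% of Cre- and 2.60% of Tet tcKO photoreceptor nuclei at full depth. At 500 UMIs they were together in 1 and in 4 nuclei. At this depth co-detection in a nucleus could not be compared between the libraries.

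Amacrine nuclei differed in the same direction for some members. The libraries filled different amacrine clusters, with 256 of 403 Cre- nuclei in cluster 27, where the Tet tcKO library had 21. Cluster 12 held 357 of 1043 Tet tcKO nuclei and 14 Cre- nuclei. Cacna1f was at 173 CPM in Cre- cluster 27 and ran from 33.8 to 104 CPM across Tet tcKO clusters 12, 13, 23 and 24. The part of this in the amacrine ratios was not tested. Cplx4 was at 51.9 CPM in the Cre- and 17.5 CPM in the Tet tcKO amacrine nuclei, a log2 ratio of -1.57 (-2.29 to -0.83). Cacna1f was at 145 and 54.6 CPM, with a ratio on the log2 scale of -1.41 (-1.82 to -0.99). Elfn2 was at 35.8 and 52.5 CPM, with an interval from -0.14 to 1.31, and Cplx3 was at 57.3 and 44.4 CPM, with an interval from -0.95 to 0.25. In this class 2 of 10 members were 2-fold lower and 0 higher, where 6.44% of 10831 genes were lower and 6.44% higher. The rod markers in amacrine nuclei summed to 2723 CPM in the Cre- and 1291 CPM in the Tet tcKO library, and the cone markers to 679 and 1717 CPM, of which 10 of 12 had a UMI in the Cre- library.

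RGCs do not make photoreceptor terminals. The libraries filled different RGC clusters, with 394 of 567 Cre- nuclei in cluster 8, where the Tet tcKO library had 29. Clusters 15 and 31 held 217 and 273 of 704 Tet tcKO nuclei, and 4 and 58 Cre- nuclei. The part of this in the RGC ratios was not tested. Bsn was at 116 CPM in the Cre- and 107 CPM in the Tet tcKO RGCs, above its photoreceptor levels. Cplx4 was at 36.6 CPM in the Cre- and 20.6 CPM in the Tet tcKO library, Cplx3 at 25.2 and 29.5 CPM, and Elfn2 at 41.5 and 28.1 CPM. In RGCs 0 of 10 members were 2-fold lower and 0 were 2-fold higher, with 3.2% of 10262 genes lower and 3.53% higher. The intervals of Elfn1 and Elfn2 crossed 0. Horizontal cells, with 90 and 37 nuclei, and Müller glia, with 144 and 102, gave between 2 and 31 UMIs for each of Cplx3, Cplx4, Elfn1 and Elfn2 and allowed no order between libraries, except for Cplx4 in Müller glia, at 140 CPM (94.8 to 198) and 40.2 CPM (14.8 to 87.5).

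**Figure D4:**
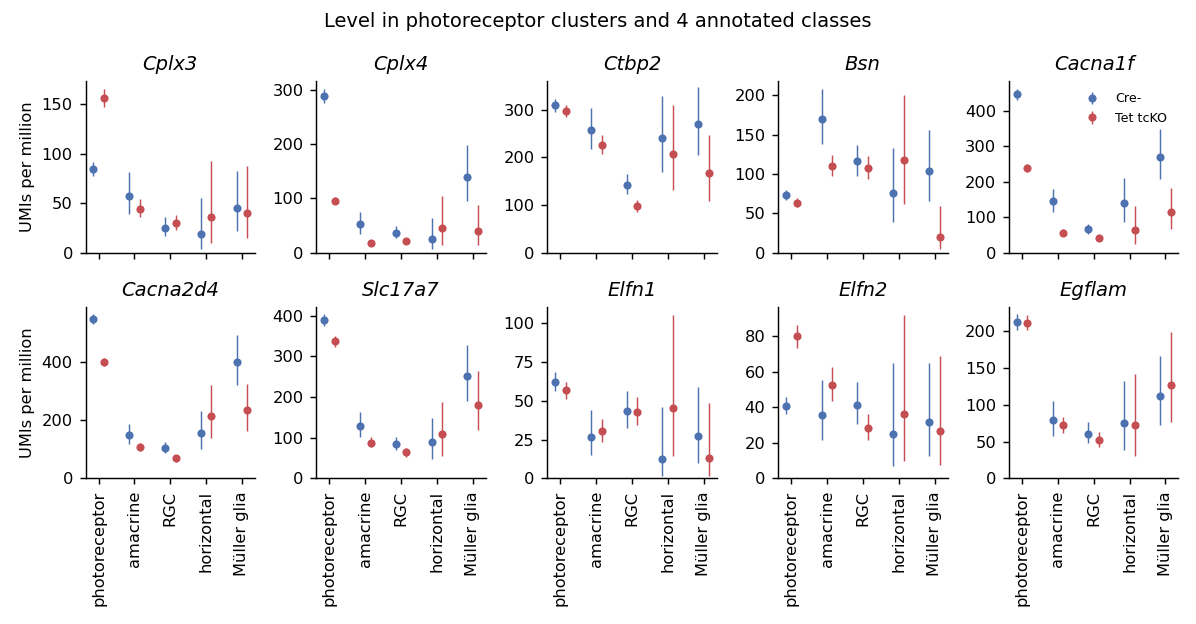
Level of each gene in the photoreceptor clusters and in 4 other classes as the authors named them, in CPM, with exact 95% Poisson intervals. In the Cre- library the photoreceptor point was the highest for Cplx3, Cplx4, Ctbp2, Cacna1f, Cacna2d4, Slc17a7, Elfn1 and Egflam. The amacrine point was the highest for Bsn, and for Elfn2 the RGC point at 41.5 CPM and the photoreceptor point at 40.7 CPM had overlapping intervals.

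Bipolar-annotated nuclei are described by cluster, since cone markers outnumbered bipolar ones among the 10 leading genes of 4 of their 9 clusters. Across 3 Cre- clusters of 100 nuclei or more Cplx4 ran from 123 to 183 CPM, and across 6 Tet tcKO clusters from 51.7 to 72.2 CPM. The highest Egflam and Elfn1 levels of any cluster of 100 nuclei or more were in Tet tcKO cluster 22, with 214 nuclei, at 525 CPM (455 to 602) and 148 CPM (113 to 192). This cluster is 1 of the 4, and the cone channel gene Cngb3 was among its leading genes. Cone markers summed to 1844 CPM over all bipolar-annotated Cre- nuclei and 6238 CPM over the Tet tcKO ones, and rod markers to 5823 and 3187 CPM.

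Because the libraries held different shares of each class, the difference of each member over all nuclei was split between the class shares of UMIs and the levels inside each class. Rod- and cone-annotated nuclei held 65.8% of Cre- and 44.7% of Tet tcKO UMIs. Clusters 32 and 40 are included in these shares. For Cplx4 the class shares made up 15.9% of the difference of -156 CPM, and for Cacna1f 17.7% of -193 CPM. They made up 23.9% for Cacna2d4 and 47.6% for Slc17a7.

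For Cplx3 the parts had opposite signs, with -13.4 CPM from class shares and 39.2 CPM from levels. For Elfn2 the class shares gave -0.645 CPM and the levels 27.5 CPM, of which 21.1 CPM were in rod- and cone-annotated nuclei. For Egflam the class shares gave -16.6 CPM and the levels 16.3 CPM, so that they cancelled, and 1.40 CPM of the levels part were in rod- and cone-annotated nuclei. This is arithmetic on the authors' class names and does not say which class lost or gained a transcript.

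**Figure D5:**
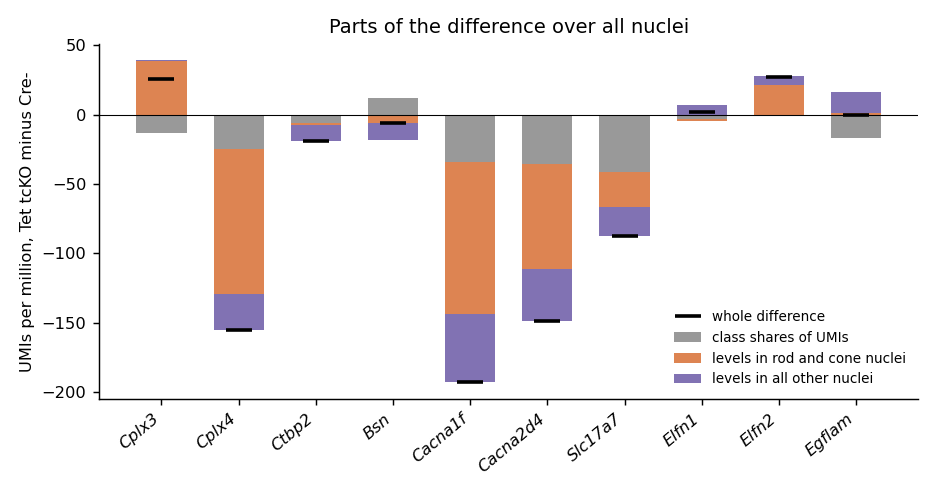
Difference of each gene over all nuclei, Tet tcKO minus Cre- in CPM, as stacked bars for the part from class shares of UMIs and the parts from levels in rod and cone nuclei and in all other nuclei, with a black mark at the whole difference. Levels in rod and cone nuclei were the longest part for Cplx4, Cacna1f, Cacna2d4, Cplx3 and Elfn2, and the Egflam parts cancelled.

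The members were set beside other synapse genes of photoreceptor clusters. Of 10 active zone scaffold genes, 0 were 2-fold lower and 0 were 2-fold higher, with a median log2 ratio of -0.14. They ran from Rims2, a docking scaffold, at -0.65 to its relative Rims1 at 0.33. Of 5 calcium channel partners 0 were 2-fold lower or higher, and the median was -0.45. Cabp4, the calcium-binding protein that sets channel opening in photoreceptors, was the lowest at -0.79, and the alpha2delta subunit gene Cacna2d1 was the highest at 0.26.

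Of 12 vesicle fusion and cycle genes 0 were 2-fold lower and 1 was 2-fold higher, the vesicle protein gene Syp at 1.01 (0.91 to 1.12), and the median was 0.34. With TMM factors Syp was at 0.83, under 2-fold. Of 9 genes of complexes across the cleft 8 passed the level filter, 0 were 2-fold lower and 1 was 2-fold higher, the neurexin gene Nrxn3 at 1.00 (0.98 to 1.03), which TMM factors put at 0.82, again under 2-fold. Their median was 0.62, and they ran from the dystrophin gene Dmd at -0.51 (-0.54 to -0.47) to Nrxn3. Lrit3, which is needed to place the receptor channel on ON bipolar dendrites, was at 0.98. In the same clusters 2.57% of all genes tested were 2-fold lower and 6.43% higher, and their median was 0.22.

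Of 6 postsynaptic genes of ON bipolar cells 5 passed the filter, 1 was 2-fold lower and 0 higher, with a median of -0.65. The lower gene was Trpm1, the channel opened in ON bipolar cells by light, at 757 CPM in the Cre- and 273 CPM in the Tet tcKO photoreceptor clusters. The bipolar marker list as a whole summed to 3571 and 2633 CPM in those clusters. It holds Trpm1 itself and other genes of this postsynaptic list, so the sum is not independent of them. Of 8 conventional synapse genes 0 were lower and 1 was higher, Slc32a1, the inhibitory transmitter transporter of amacrine and horizontal cells, at 1.25 (0.94 to 1.56) and 1.07 with TMM factors. The 12 amacrine markers, Slc32a1 among them, summed to 756 and 943 CPM. The part of RNA from those cells in the values was not tested.

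Across 47 sums of clusters with 50 nuclei or more, members were compared with 8218 genes by Pearson's r of log2 of CPM plus 10. These sums share libraries, depth and cell types, so r is a description. The gene most like Cplx4 was Rdh12, a photoreceptor retinol dehydrogenase (r = 0.958), that of Slc17a7 was Slc38a3 (r = 0.971) and that of Cacna1f was Usp2 (r = 0.967). Cplx3 was most like Eef1a1 (r = 0.909) and Cacna2d4 most like Dscaml1 (r = 0.944). For Ctbp2 (Ccnl1, r = 0.852), Bsn (Mdn1, r = 0.823), Elfn1 (Marchf1, r = 0.799) and Elfn2 (Nectin1, r = 0.743) the nearest gene was less alike.

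Among themselves Cplx4, Cacna1f, Cacna2d4 and Slc17a7 had r between 0.828 and 0.922. Bsn had a negative r with each of the other 9 members, from -0.418 with Slc17a7 to -0.092 with Ctbp2. Cplx4 and Elfn2 had an r of -0.08, and Elfn1 and Elfn2 an r of 0.42. Cplx3 and Cplx4 had an r of 0.56.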

How the data were processed

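Nuclei were captured with a PIPseq T20 kit (v4.0) and, per the labels, reads were processed with pipseeker v3.3.0 and aligned to GRCm39. The sources do not name the annotation version or the handling of strand. The authors removed ambient RNA with CellBender v0.3.0 at a cell probability of 0.99 and kept, in Monocle3, nuclei with more than 500 but fewer than 10000 transcripts of which less than 20% were mitochondrial. Each deposited matrix gives the UMI count, a whole number, of every gene in every nucleus. The deposited cell tables add counts per nucleus, the authors' mitochondrial percent, a size factor that is a ratio of totals, and the cluster and cell type names. The deposited gene table holds a signal, the authors' mean depth-scaled count per genotype, which was not used for any level, and a pooled count of nuclei.

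UMIs of a gene were summed over a population and scaled to 1000000 UMIs of that population (CPM). Log2 ratios put Tet tcKO over Cre-. A gene entered the background at 10 CPM or more in either library, and 2-fold or more was called. No test was possible with a single library for each genotype. Intervals are exact at 95% (Poisson, conditional for ratios, Clopper-Pearson for shares) and, like the floor of 3 counts that stands in for a count of 0, cover counting error only. Levels were not compared over the bipolar class, where foreign markers outnumbered its own among the 10 leading genes of some clusters. Rod and cone markers counted as one list. Shares of UMIs by class use the authors' names as they stand. No caller marked doublets. Instead, nuclei in the top 5% of a simulated-doublet score were left out as an alternative. Ratios were tested on simulated data. Python 3.11.15, numpy 2.4.6, scipy 1.17.1, pandas 2.3.3 and scikit-learn 1.9.0 were used, and edgeR 4.0.16 and DESeq2 1.42.0 (R 4.3.3) gave scaling factors only. Alternatives were other scalings, totals without mitochondrial genes, each gene once per nucleus, means per 10000, depth and doublet filters, thinning, without each gene's highest nucleus, other populations, subtraction of the amacrine level, leaving out cluster 25 (chosen after seeing the data), fixed class shares and other level filters.

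The members, marker lists and pathway lists were chosen with earlier results of these data known. All 10 members are named. Pathway genes are named where past 2-fold or where a range needs its ends, and the gene most like a member is the first by correlation, which for Egflam is not reported here.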

Additional observations from a re-analysis of the deposited data

Results flagged for a closer look

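Cplx3 had a log2 ratio of 0.89 in photoreceptor clusters and of -0.37 in amacrine nuclei (interval -0.95 to 0.25), a gap of 1.26 on the log2 scale between intervals that do not overlap. Elfn2 had a log2 ratio of 0.97 in photoreceptor clusters and of -0.56 in RGCs (interval -1.12 to 0.01), a gap of 1.53. Each stands out because the ratio was smaller in the cell type named, with the opposite sign. The remaining class kept the photoreceptor sign, with Cplx3 at 0.23 (-0.41 to 0.90) in RGCs and Elfn2 at 0.55 (-0.14 to 1.31) in amacrine nuclei. The intervals in amacrine nuclei and RGCs include 0, so a lower level there is not shown. The difference between cell types was not tested. In both of these cell types the libraries filled different clusters, so the ratios also set unlike clusters side by side. Within the Cre- library Elfn2 was at 52.7 CPM (36.5 to 73.7) in RGC cluster 8 and 24.7 CPM (12.8 to 43.1) in RGC cluster 2.

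The authors' gene table counts nuclei with a UMI of each gene and was outside the comparisons. For the 10 members it lists more nuclei than the 2 matrices hold, by a median factor of 1.16 (1.12 to 1.22), for example 3565 against 2951 for Cplx4. The sources used here do not say which nuclei the table counted.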

How the results depend on the processing

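No paired analysis was possible because each genotype has 1 library, and for the same reason no library could be left out. The median log2 ratio of the members over all nuclei was -0.10, and -0.21 with TMM factors and -0.21 with median-of-ratios factors. In photoreceptor clusters it was -0.17, and -0.35 with TMM factors, -0.33 with median-of-ratios factors and -0.32 in cone-annotated nuclei only. These factors brought the median of all genes from 0.15 to 0.04 over all nuclei and from 0.22 to 0.04 (TMM) or 0.06 in photoreceptor clusters. Over all nuclei 1 member in place of 2 was 2-fold lower when each gene counted once per nucleus and when Cre- class shares were used in both libraries. In photoreceptor clusters 2 members in place of 1 were 2-fold lower with TMM and with median-of-ratios factors. With the amacrine level subtracted the change in the Elfn2 to Elfn1 balance was 2.90 in place of 1.11. That value carries no information, because the Cre- Elfn2 level of 40.7 CPM lay within the amacrine interval of 21.9 to 55.3 CPM and its remainder cannot be told from 0. The other alternatives gave 0.97 to 1.25. In cone-annotated nuclei the log2 ratio of Bsn was 0.14 in place of -0.21.

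Over 13 alternatives, of which leaving out cluster 25 was chosen after seeing the data, in photoreceptor clusters Cplx4 ran from -2.01 to -1.41 and Cacna1f from -1.09 to -0.72. Cplx3 ran from 0.68, with each gene once per nucleus, to 2.06. Elfn2 ran from 0.65, with nuclei thinned to 500 UMIs, to 2.47. Both of these were highest with the amacrine level subtracted. Of 230 values of single members under an alternative, 166 lay within the counting interval, 63 outside it, and the 1 of Bsn had the opposite sign to an interval that excluded 0. The cause of these differences was not tested. With TMM factors 451 genes were 2-fold lower and 445 higher in photoreceptor clusters, in place of 293 and 732. With median-of-ratios factors these were 432 and 469. With a filter of 1 CPM 1100 were lower and 1786 higher, and with none beyond 3 counts 1520 and 2255. Over all nuclei the counts were 277 and 355, with a filter of 1 CPM 819 and 1049 and with none beyond 3 counts 1423 and 1982. The doublet filter removed 148 of 265 Cre- cone-annotated nuclei. The smallest count behind a member's level in photoreceptor clusters was 281 UMIs, for Elfn2 in the Cre- library.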
